A study of Mus musculus with 6 samples.

Results

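The libraries described here are the 2 made from mouse cortical neurons after 6 h in KCl and the 2 made from the same kind of culture at 0 h, 4 of the 6 RNA-seq libraries of the series, and the genes compared are all those in their expected-count tables. The cells were wild type, of the C57BL/6 strain, taken from the cortex of embryos of both sexes pooled at embryonic day 16.5 and grown for 7 days in vitro. Both groups had been silenced overnight with 1 µM tetrodotoxin (TTX), which blocks voltage-gated sodium channels, and 100 µM DL-AP5, which blocks NMDA receptors. The 6 h group was then held in 55 mM KCl, so the 0 h group is the silenced state and the comparison gives the net state of the transcripts 6 h after depolarization began. The remaining 2 libraries, taken at 2 h, entered the same fit and are given only beside the 6 h values. The study describes the 2 libraries of each time as biological duplicates, and nothing in the labels ties a 0 h culture to a 6 h culture.

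A raised KCl concentration depolarizes the membrane and opens L-type calcium channels, and the calcium that enters acts on kinases and on the transcription factor CREB, which binds the cAMP response element (CRE). Transcription factor genes such as Fos, Npas4 and Nr4a1 respond first, and their products act with CREB and other factors on genes for secreted peptides, synaptic proteins and channels. Neurons held in a state of high or low activity are also known to adjust the number of receptors at their synapses and the channels that set their excitability, which is called homeostatic plasticity.

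The 0 h libraries held 27860328 and 28573067 expected counts in total and the 6 h libraries 27161212 and 26787482. Each detected from 18806 to 19038 of 43432 genes. Neuronal transcripts were abundant. The 10 neuron markers (such as Map2, Stmn2 and Snap25) summed to 6262 and 6128 TPM (transcript abundance scaled for length and library) at 0 h and to 5725 and 5872 TPM at 6 h, and none of them was at 0. Of these 10 markers 6 had a higher and 1 a lower level at an adjusted p of at most 0.05, 2 were called higher and 1 lower, and their median log2 fold change was 0.28, while their sum fell. The 1 called lower, Tubb3 (-1.01), lost its call without 6 h replicate 1 (-0.90) and after the GC correction (-0.87). The cultures also held astrocyte transcripts, whose 10 markers summed to 4703 and 4783 TPM at 0 h and to 3496 and 3320 TPM at 6 h. None of the 10 astrocyte markers passed the test described below, while 6 had a lower level at an adjusted p of at most 0.05, among them Slc1a2, the main glial glutamate transporter (log2 fold change -0.61 ± 0.13). Of all 17277 genes tested, 4089 were higher and 3744 lower at that adjusted p. The 10 markers of the oligodendrocyte lineage summed to 158.0 and 184.5 TPM at 0 h and to 138.1 and 149.2 TPM at 6 h, 2 of them called lower, with a median log2 fold change of -0.32. Microglial markers summed to 4.8 to 11.1 TPM, endothelial and mural markers to 2.7 to 3.5 TPM with Kcnj8 at 0 in all 4 libraries, and fibroblast and meningeal markers to 51.2 to 76.2 TPM. In such bulk samples fewer cells of a type and less RNA per cell cannot be told apart.

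Gene levels differed widely between the silenced and the depolarized state. A gene was counted as up-regulated or down-regulated when the adjusted p of DESeq2 was at most 0.05 and the log2 fold change (6 h over 0 h, given with its standard error) was above 1 or below -1. Of 17277 genes tested, 1572 (9.1%) were up-regulated and 1761 (10.2%) were down-regulated, 3333 (19.3%) in all. Of these, 77 had no count in either 0 h library and 20 none in either 6 h library, and their folds are lower bounds against a floor of 3 counts per library. With such genes at their bound, 490 genes rose and 385 fell by over 4-fold, and 196 rose and 73 fell by over 8-fold. For comparison, 609 genes (3.62%) were higher and 1000 (5.94%) lower at 2 h than at 0 h, and 1654 (10.1%) were higher and 1316 (8.02%) lower at 6 h than at 2 h. In all 3333 calls the 2 libraries of 0 h did not overlap with the 2 of 6 h. A change above 2-fold that passes the test nearly implies such a gap, so the gap adds no support to the calls. Its share among all genes tested was not counted. The counts depend on the scaling: with library totals in place of the median-of-ratios factors, the median log2 fold change of all genes was -0.25 in place of 0.00, 1032 genes were higher and 2564 lower, and 28.7% of the calls were increases against 47.2%. Medians of groups of genes are given relative to the median of all genes. Of the genes described below, Adamts6, Adamts9, Ago2, Crebbp, Hdac4, Itgav, Pabpn1, Plat, Srsf11, Sst, Tet3 and Xrcc2 were above the 2-fold limit with the median-of-ratios factors and below it with library totals (log2 fold changes of 0.81 to 0.99). Counts were also not whole in 1 or more libraries for Txnip, Adamts17, Adat1, Ldha, Pabpn1, Prmt7, Rbm10, Rybp, Scn2a, Slc7a1, Trmt61a and Tyw1. Chd2 and Nlgn3 overlap another gene on the same strand. Since the strand setting of the counting is not given, reads of opposite-strand neighbours may be included for 1700016P03Rik, Adamts2, Adamts9, Ago2, Atp1b1, Cacna1c, Cacna1d, Cars2, Cbln1, Col10a1, Col4a2, Cpsf3, Ddb1, Ears2, Fgf15, Gabra4, Kcnh3, Kcnj3, Lrrc4, Nrn1, Ogg1, Prmt7, Rbm10, Scn1a, Slc16a6, Srrm4, Syn3, Syt4 and Xrcc4, which overlap another gene there.

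The genes with the largest increases included the transcription factors of the early response, which were still high at 6 h. Fos, a subunit of the AP-1 factor, had 38.2 and 34.5 normalized counts at 0 h and 3915 and 3806 at 6 h (log2 fold change 6.73 ± 0.21, adjusted p = 4.09e-226), after 6939 and 8222 at 2 h. Npas4, a neuronal factor that responds to calcium entry, rose from 47.0 and 37.9 to 3899 and 3614 (6.47 ± 0.22, adjusted p = 9.73e-192). The fitted folds at 6 h were 106.3 for Fos and 88.6 for Npas4, and both libraries at 6 h were below both at 2 h (7467 and 9480 for Npas4). Of the 18 activity-regulated transcription factors listed, 13 were up-regulated and 1, Jun, was down-regulated, from 606.3 and 657.3 to 257.9 and 261.4 (-1.28 ± 0.17). The non-coding gene 1700016P03Rik, inside which the annotation places the hairpins of the microRNAs Mir212 and Mir132, had no count in either 0 h library and 324.2 and 288.3 at 6 h, an at least 118-fold higher level when 3 counts per library are taken as the floor (chr11:75172560-75177633, mm10). Its expected counts were not whole, which means that some of its reads were shared with another locus and that its level is uncertain.

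The largest decreases had smaller folds than these increases. Txnip (chr3:96557957-96561883, mm10), whose product binds thioredoxin and restrains glucose uptake, fell from 2059 and 2268 normalized counts to 84.5 and 118.3 (-4.42 ± 0.22, adjusted p = 7e-91). The zinc finger gene Zfp239 fell from 572.6 and 579.0 to 39.6 and 55.9 (-3.59 ± 0.24), Senp8, which encodes a protease that removes NEDD8, from 293.8 and 288.2 to 26.8 and 24.7 (-3.50 ± 0.32), and Zmat1 from 349.8 and 290.7 to 26.8 and 31.2 (-3.47 ± 0.33). Slc16a6, a monocarboxylate transporter gene whose counts are not whole, fell from 950.7 and 1115 to 75.97 and 128.0 (-3.34 ± 0.26).

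CRE and AP-1 sequences were searched in the promoters because both are bound by factors that depolarization acts on. RefSeq promoter windows of build GRCm38.p6, from 250 bases before to 50 bases after each start site, were matched by symbol to 12448 of 17118 tested genes. The full CRE, TGACGTCA, reads the same on both strands. It was found in 66 of 1085 up-regulated genes (6.08%), 41 of 1324 down-regulated genes (3.1%) and 312 of 10039 tested genes that were not called (3.11%), and in 2.03% of all 27025 genes in the table. The AP-1 sequence, TGACTCA or TGAGTCA, was found in 60 of the up-regulated (5.53%), 51 of the down-regulated (3.85%) and 451 of the uncalled genes (4.49%), and in 5.95% of the table. Among genes of the lists used below, 12 up-regulated and 4 down-regulated genes held a full CRE. The listed genes with a matched window were not counted, so these counts have no share and cannot be compared. Those shown are examples. The first 4 shown here belong to up-regulated genes of secreted peptides or their processing, the next pair to an up-regulated chromatin gene and an up-regulated RNA-binding protein gene, and the last pair to down-regulated genes of tRNA modification. Each is given 5′ to 3′ on the strand of the gene with the CRE in capitals.
Pcsk1 (chr13:75089763-75089802, plus strand): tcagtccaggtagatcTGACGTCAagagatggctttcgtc
Scg2 (chr1:79440071-79440110, minus strand): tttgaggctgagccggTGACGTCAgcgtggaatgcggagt
Sst (chr16:23890869-23890908, minus strand): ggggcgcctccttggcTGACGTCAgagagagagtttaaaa
Cartpt (chr13:99900772-99900811, minus strand): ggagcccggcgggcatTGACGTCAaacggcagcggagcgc
Baz2b (chr2:60125741-60125780, minus strand): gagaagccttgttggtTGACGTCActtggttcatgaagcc
Msi2 (chr11:88718423-88718462, minus strand): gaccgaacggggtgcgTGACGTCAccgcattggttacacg
Trmt61a (chr12:111678069-111678108, plus strand): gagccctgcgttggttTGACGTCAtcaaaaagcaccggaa
Tyw1 (chr5:130255589-130255628, plus strand): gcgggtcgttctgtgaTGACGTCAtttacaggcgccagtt
The CRE began 78 bases before the start site in Pcsk1, 68 in Scg2, 48 in Sst and 112 in Cartpt, and 20 and 14 bases before it in Trmt61a and Tyw1. The same letters thus stood close to the start of genes that rose and of genes that fell.

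The genes were then grouped by function into synapse, channels, metabolism, matrix, chromatin and RNA processing, each made of several lists of textbook members (45 lists in all). The plot of calls by list shows the share of each list that was up-regulated or down-regulated. Counts of calls in each list below are to be read beside the 9.1% and 10.2% of all genes tested.

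**Figure D1:**
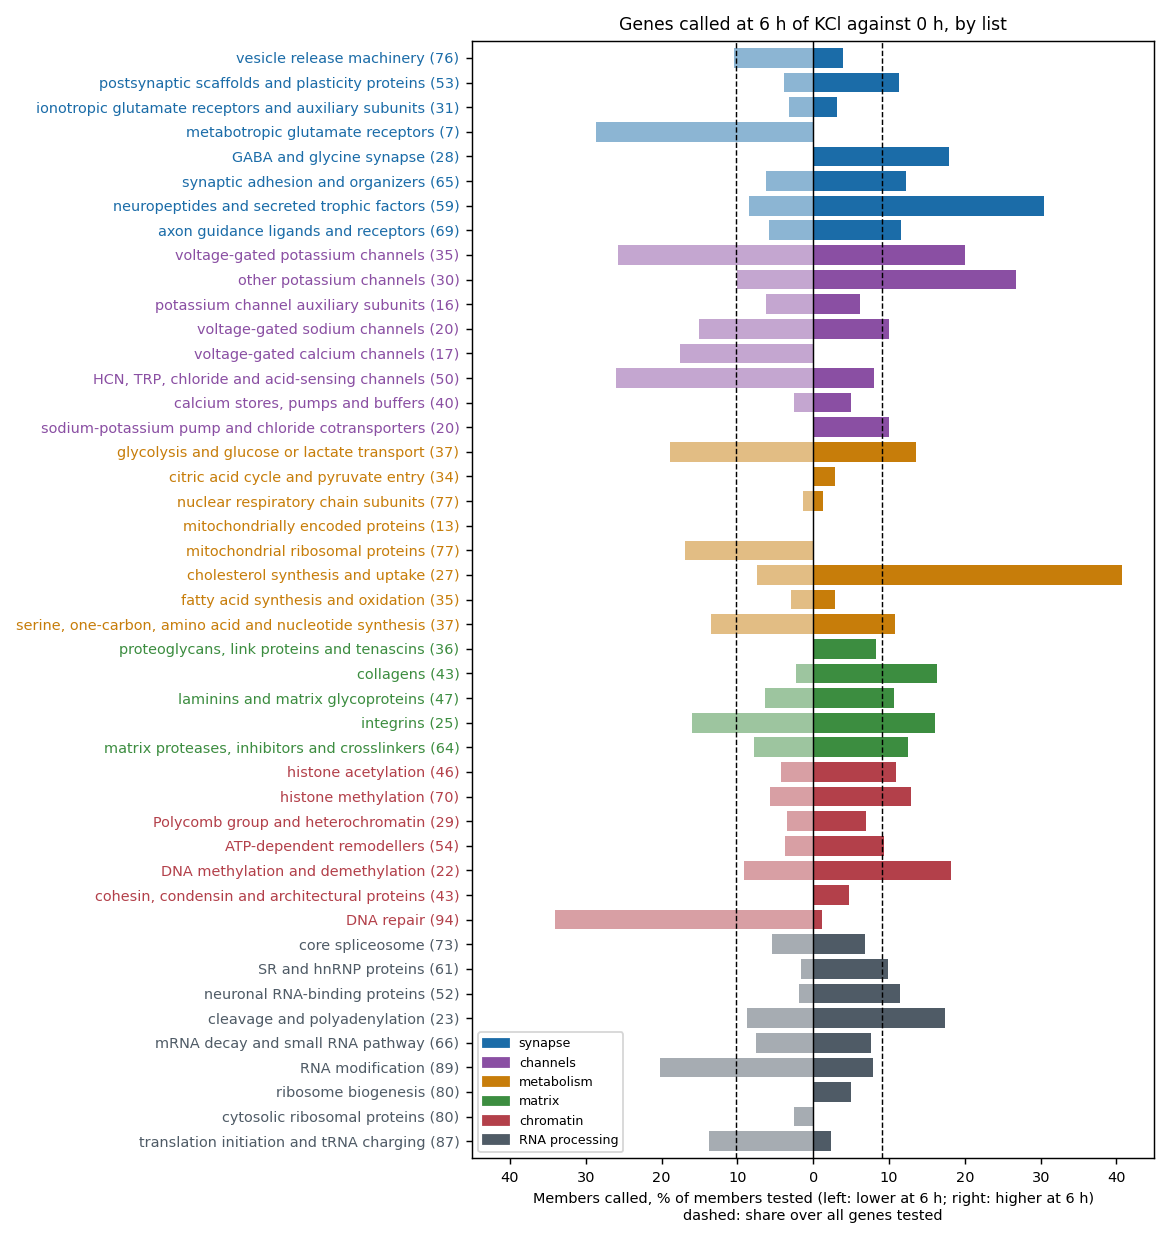
Share of the tested members of each of 45 lists that were up-regulated (right, full colour) or down-regulated (left, pale) at 6 h against 0 h, in percent, with the number of members tested in brackets; the dashed lines mark the shares over all genes tested, 9.1% and 10.2%. Cholesterol synthesis and neuropeptides reach furthest to the right, and DNA repair reaches furthest to the left.

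Of 388 synapse genes tested, 49 (12.6%) rose and 26 (6.7%) fell, beside 9.1% and 10.2% of all genes, and their median log2 fold change was 0.12 above that of all genes. Their TPM summed to 22900 and 22593 at 0 h and to 24158 and 24613 at 6 h. With library totals as size factors the counts turned to 32 higher and 40 lower.

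Secreted peptides and trophic factors accounted for 18 of the 49 increases, out of 59 tested (30.5%), with 5 decreases. Pcsk1 (chr13:75089826-75134861, mm10), which encodes the protease that cleaves prohormones in dense-core vesicles, rose from 146.5 and 162.6 to 5358 and 5095 normalized counts (5.08 ± 0.17, adjusted p = 1.07e-204). Bdnf, a neurotrophin that strengthens synapses, rose from 99.4 and 79.2 to 2580 and 2565 (4.85 ± 0.22, adjusted p = 6.4e-104). Both had reached most of this level by 2 h, with 5076 and 4110 counts of Pcsk1 and 1707 and 1209 of Bdnf. The granin genes Vgf and Scg2, whose products are cargo of dense-core vesicles, rose from 30.2 and 30.3 to 342.4 and 453.9 (3.72 ± 0.30) and from 2302 and 2264 to 17231 and 17269 (2.92 ± 0.10). Nrn1, which encodes a membrane-anchored protein that promotes neurite growth, rose from 326.7 and 312.7 to 1472 and 1462, and Adcyap1, the gene of the peptide PACAP, from 72.8 and 71.6 to 415.2 and 391.5. Pnoc, the gene of nociceptin, differed from these in its time course: from 54.1 and 62.4 counts in the silenced cultures it had reached only 84.9 and 78.6 by 2 h, but 334.9 and 384.0 by 6 h. The decreases were in growth factor genes, Fgf11 from 854.9 and 949.8 to 227.9 and 223.7 (-1.999 ± 0.17) and the neurotrophin gene Ntf3 from 216.6 and 210.7 to 103.8 and 91.4 (-1.13 ± 0.25), and in Fgf5, Fgf15 and Fgf18, whose means at 0 h were 37.5, 30.2 and 70.6. The count of 5 decreases was 2 without 0 h replicate 1, without 0 h replicate 2 or without 6 h replicate 1, and Fgf5, Fgf15 and Fgf18 each lost their call in all 3 of these settings. Fgf5 and Fgf15 also lost it without either 2 h library, without 6 h replicate 2, with only the 4 libraries (adjusted p = 0.0798 and 0.0691 by DESeq2) and with the replicate block (0.0665 and 0.0641).

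Single genes of inhibitory synapses rose, while few genes of glutamate receptors were called. Of 28 tested genes of the GABA and glycine synapse, 5 (17.9%, beside 9.1% of all genes) were up-regulated and none was down-regulated. At an adjusted p of at most 0.05, 13 had a higher and 3 a lower level, beside 4089 and 3744 of all 17277 genes. Gad1 and Gad2, which encode the enzymes that make GABA, rose from 6059 and 5971 to 16868 and 15201 (1.42 ± 0.11, adjusted p = 1.29e-36) and from 2887 and 2498 to 7073 and 6704 (1.35 ± 0.17, adjusted p = 9.37e-15). Gabra4, a receptor subunit found outside synapses, rose from 1042 and 992.7 to 3857 and 3860 (1.92 ± 0.23). All 3 were higher in both 6 h libraries than in either 0 h library. At 2 h Gabra4 had 1342 and 814.7 counts, which enclose its values at 0 h. The markers of inhibitory neurons share Gad1, Gad2 and Slc32a1 with this list, so their values are not independent of it. Of these 11 markers, 3 (Gad1, Gad2 and Sst) were up-regulated and none was down-regulated. At an adjusted p of at most 0.05, 6 were higher and none was lower, and the median log2 fold change was 0.46. Their TPM summed to 689.7 and 744.7 at 0 h and 1150 and 1157 at 6 h. Slc32a1 was higher but under the 2-fold limit (0.63 ± 0.16). Lhx6, a transcription factor of inhibitory neurons, had 1544 and 1426 counts at 0 h and 1561 and 1205 at 6 h. Sst lost its call without 6 h replicate 2 (0.99). The count of 5 was 3 without 6 h replicate 2, and with library totals 3 genes rose and 2 fell. What part the number of inhibitory neurons had in these values was not tested.

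Among 31 ionotropic glutamate receptor subunits and their partners, 1 was up-regulated and 1 was down-regulated, and the median was 0.23 below that of all genes. Both calls were lost without 6 h replicate 1, and with library totals none rose and 3 fell. The list summed to 1636 and 1531 TPM at 0 h and to 1308 and 1341 TPM at 6 h. Gria1, a main AMPA receptor subunit, had 12993 and 11988 counts at 0 h and 8870 and 7882 at 6 h, a difference under the 2-fold limit (-0.58 ± 0.12, adjusted p = 1.16e-05). Grin2b, the NMDA receptor subunit of young neurons, had 28487 and 22684 counts at 0 h and 24694 and 26754 at 6 h, which overlap, and Grin2a, the subunit of mature synapses, had 403.9 and 390.2 against 522.2 and 567.9 (0.46 ± 0.16, adjusted p = 0.00945). Of 7 metabotropic glutamate receptors, none rose and 2 fell. Grm4, a presynaptic receptor, fell from 205.1 and 218.3 to 62.1 and 65.6 (-1.73 ± 0.28), with both 6 h libraries below both at 0 h.

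Postsynaptic scaffold and plasticity genes had 6 increases (11.3%, near the 9.1% of all genes) and 2 decreases (3.8%, beside 10.2%) among 53 tested. Homer1, whose short product uncouples group I glutamate receptors from their scaffold, rose from 2147 and 1924 to 10783 and 9524 (2.32 ± 0.27), after 15721 and 8178 at 2 h. Arc, which promotes removal of AMPA receptors from the membrane, rose from 15.98 and 31.2 to 176.6 and 182.8 (2.92 ± 0.36). Sipa1l2, which regulates the GTPase Rap, rose from 1154 and 1283 to 5746 and 5600 (2.22 ± 0.12), and Dlg1, a scaffold of the PSD-95 family, from 1050 and 962.4 to 2905 and 2880. Grip2, which binds AMPA receptor subunits, fell from 582.3 and 678.4 to 278.2 and 232.3 (-1.304 ± 0.20), and Camk2a, the kinase subunit abundant in the postsynaptic density, had overlapping values of 6162 and 5665 at 0 h and 6040 and 6505 at 6 h. The list thus held genes with separate groups beside an abundant member whose groups overlap.

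Of 65 synaptic adhesion molecules and organizers, 8 were up-regulated (12.3%) and 4 down-regulated (6.2%), beside 9.1% and 10.2% of all genes. The secreted pentraxins Nptx2 and Nptx1, which cluster AMPA receptors, rose from 68.3 and 88.5 to 1041 and 1035 (3.73 ± 0.23, adjusted p = 2.51e-58) and from 389.7 and 391.0 to 1200 and 1169 (1.60 ± 0.13). Nptx2 was also higher at 2 h (170.8 and 230.5), whereas Nptx1 was at 447.4 and 446.6. Lrrc4, which encodes netrin-G ligand 2, rose from 1452 and 1461 to 4354 and 4353 (1.58 ± 0.10). Nlgn3, a neuroligin of excitatory and inhibitory synapses, fell from 4346 and 4085 to 1721 and 1525 (-1.38 ± 0.12) with counts that were not whole, and the cerebellins Cbln1 and Cbln4, which bridge neurexins to their partners, fell from 510.4 and 503.9 to 164.8 and 183.9 (-1.54 ± 0.18) and from 313.4 and 311.0 to 129.5 and 138.7 (-1.22 ± 0.23). The increases numbered 5 with library totals.

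Of 76 genes of vesicle release, 3 rose (3.9%) and 8 fell (10.5%), the latter close to the 10.2% of all genes, and the median was 0.03 above that of all genes. Syt4, a synaptotagmin of dense-core vesicles, rose from 14573 and 14229 to 40259 and 40497 (1.49 ± 0.16), and the vesicle protein gene Sv2c from 255.7 and 299.2 to 1119 and 1080 (1.99 ± 0.15). Syt3 fell from 358.6 and 331.2 to 110.2 and 110.8 (-1.64 ± 0.23) and Syn3, a synapsin that binds vesicles, from 2314 and 2244 to 908.5 and 936.8 (-1.305 ± 0.13). The counts of Syt4 and Syn3 were not whole. The decreases numbered 5 without 6 h replicate 2. Of 69 axon guidance genes, 8 rose (11.6%) and 4 fell (5.8%), beside 9.1% and 10.2% of all genes, turning to 3 and 7 with library totals. Slit2, a secreted repellent, rose from 1261 and 1155 to 4410 and 4566 (1.89 ± 0.11), and Plxnc1, a semaphorin receptor, fell from 7503 and 7063 to 3182 and 2942 (-1.25 ± 0.11).

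**Figure D2:**
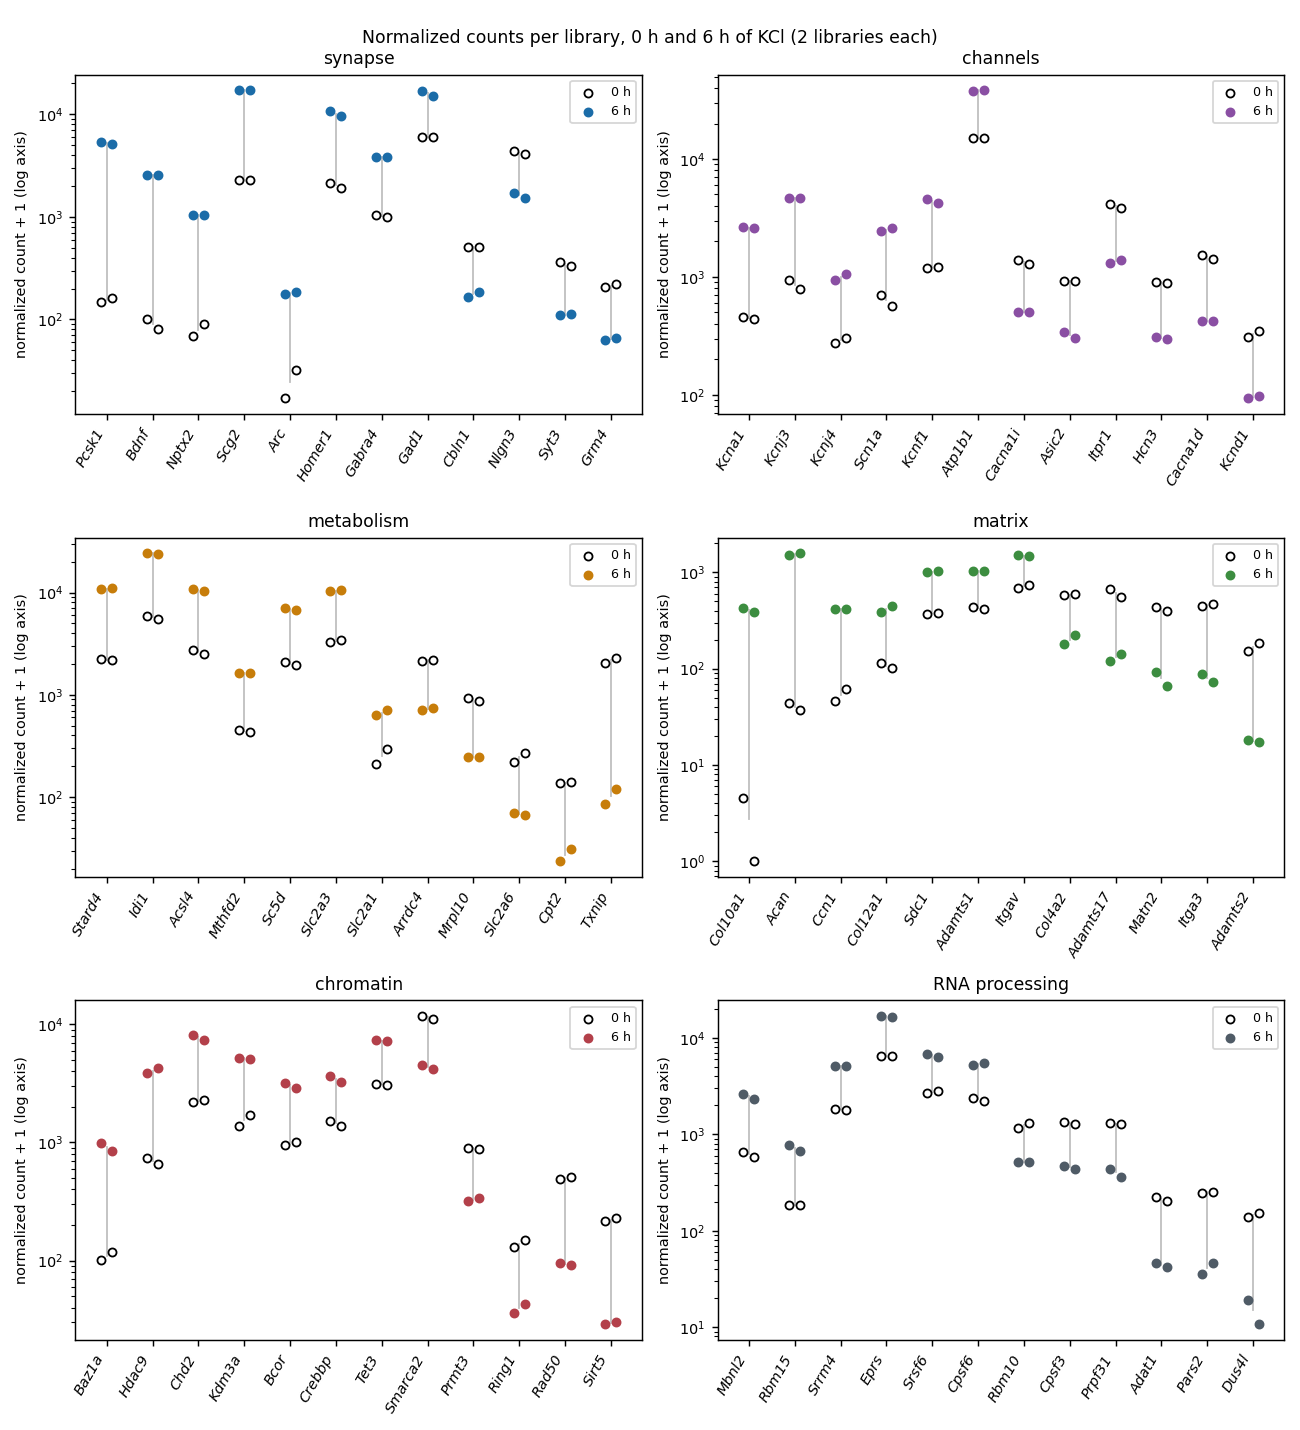
Normalized counts plus 1 in each library (log axis) for 12 genes of each of the 6 functions, open circles for the 2 libraries at 0 h and filled circles for the 2 at 6 h, joined at the group means. The genes were picked among those called, of which none has overlapping groups, so the plot shows their levels and sizes of change and is no test.

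Of 228 channel genes tested, 26 (11.4%) were up-regulated and 33 (14.5%) down-regulated, beside 9.1% and 10.2% of all genes, and the median was 0.04 below that of all genes. The summed level was 11064 and 11206 TPM at 0 h and 12011 and 12514 TPM at 6 h.

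Potassium channel genes, whose products repolarize the membrane or hold it at rest, were called in both directions. Of 35 voltage-gated potassium channel genes, 7 rose and 9 fell, beside 9.1% and 10.2% of all genes. Whether potassium channel genes held more of the channel calls than their number among the channel genes gives was not tested. Kcna1, which encodes the Kv1.1 channel of axons, rose from 458.9 and 442.4 to 2632 and 2599 (2.54 ± 0.14, adjusted p = 9.7e-70), and Kcnf1, a modifying subunit gene, from 1196 and 1219 to 4552 and 4248 (1.87 ± 0.11). At 2 h Kcna1 had 666.1 and 557.2 counts, while Kcnf1 was already at 3231 and 3422. Kcnd1, which encodes an A-type channel, fell from 310.7 and 348.0 to 92.0 and 96.8 (-1.80 ± 0.22), and Kcnh3 from 351.5 and 370.0 to 116.6 and 120.5 (-1.61 ± 0.23).

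Inward rectifier, leak and calcium-activated potassium channel genes had 8 increases (26.7%) and 3 decreases (10%) among 30 tested. Kcnj3, which encodes the GIRK1 channel opened by G proteins, rose from 933.0 and 785.4 to 4679 and 4694 (2.45 ± 0.22), with counts that were not whole, and Kcnj4, a strong inward rectifier gene, from 273.4 and 304.2 to 936.3 and 1065 (1.79 ± 0.18). Kcnk9, a leak channel gene, rose from 167.8 and 161.8 to 373.4 and 525.9 (1.45 ± 0.24). Kcnj1, known from the kidney tubule, had no count at 0 h and 51.4 and 81.7 at 6 h, an at least 25.6-fold higher level. Another GIRK gene, Kcnj9, fell from 276.1 and 276.4 to 133.8 and 117.2 (-1.14 ± 0.20; -0.998 after a correction for GC content). The increases numbered 5 without 0 h replicate 2, without 6 h replicate 2 or with library totals.

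Of 20 voltage-gated sodium channel genes, 2 rose and 3 fell. Scn1a, the sodium channel gene of inhibitory neurons, rose from 705.7 and 561.3 to 2439 and 2602 (1.99 ± 0.20), whereas Scn2a, a main sodium channel gene of excitatory neurons, had 7098 and 6462 counts at 0 h and 6135 and 6378 at 6 h, which lie side by side without a difference that passed the test (-0.12 ± 0.15, adjusted p = 0.558). Scn4a, the channel gene of skeletal muscle, had no count in the silenced cultures, 8.99 and 12.4 by 2 h, and 120.9 and 98.95 by 6 h, an at least 42.4-fold higher level than at 0 h. None of 17 voltage-gated calcium channel genes rose and 3 fell. Cacna1d, which encodes the L-type channel Cav1.3, fell from 1530 and 1407 to 422.7 and 419.5 (-1.80 ± 0.13, adjusted p = 2.07e-43), although it had 2139 and 2230 at 2 h, and Cacna1i, a T-type channel gene, fell from 1392 and 1296 to 505.1 and 501.2 (-1.42 ± 0.13). Cacna1c, which encodes the L-type channel Cav1.2, had 3105 and 2869 counts at 0 h and 2264 and 2132 at 6 h (-0.44 ± 0.12), which do not overlap but are under the 2-fold limit. The counts of Cacna1d and Scn1a were not whole.

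Among 50 HCN, TRP, chloride and acid-sensing channel genes, 4 rose and 13 (26% of those tested) fell, and the median was 0.39 below that of all genes. Hcn3, of the family of hyperpolarization-activated channels, fell from 909.0 and 892.4 to 305.0 and 294.7 (-1.59 ± 0.18, adjusted p = 1.02e-17). Asic2, an acid-sensing channel gene, fell from 923.2 and 922.8 to 338.1 and 302.2 (-1.53 ± 0.16), Ano10, of the anoctamin family, from 957.8 and 944.7 to 330.6 and 357.1, and Clcn7, a lysosomal chloride transporter gene, from 1012 and 995.3 to 337.1 and 416.2. For the sodium-potassium pump, which restores the ion gradients, the beta subunit gene Atp1b1, with counts that were not whole, rose from 15080 and 15129 to 37822 and 38509 (1.34 ± 0.10). Of the 20 pump and chloride cotransporter genes tested, 2 rose and none fell. In the list of calcium stores, pumps and buffers 2 of 40 rose and 1 fell. The increases numbered 1 without 0 h replicate 2 or without either 6 h replicate, and the decreases 2 without 6 h replicate 1. The gene that fell was Itpr1, the gene of the inositol trisphosphate receptor that releases calcium from the endoplasmic reticulum, from 4131 and 3841 to 1312 and 1392 (-1.56 ± 0.11).

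Of 337 metabolic genes tested, 23 were up-regulated (6.8%) and 29 down-regulated (8.6%), beside 9.1% and 10.2% of all genes. The plot of log2 fold changes by list shows 12 lists member by member.

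**Figure D3:**
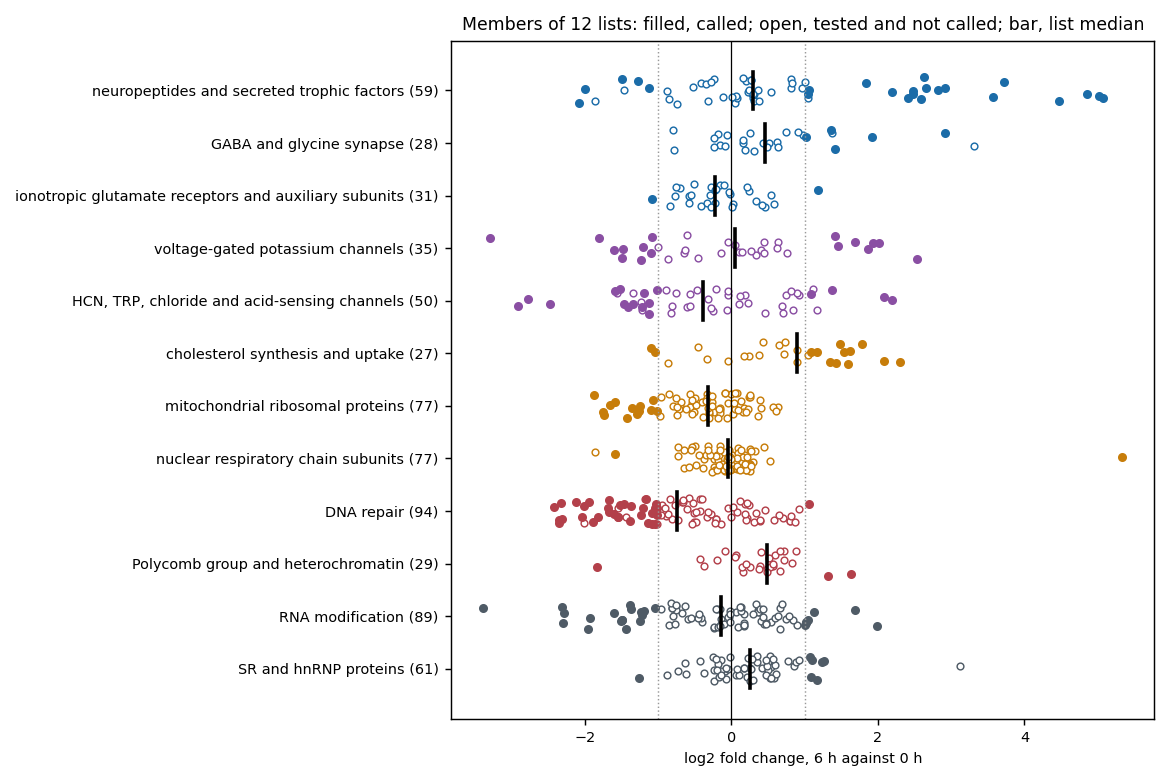
Log2 fold change (6 h over 0 h) of every tested member of 12 lists, with the number tested in brackets; filled points were called, open points were not, the black bar is the list median and the dotted lines mark log2 fold changes of -1 and 1. The median of cholesterol synthesis lies at 0.90 and that of DNA repair at -0.75, while the respiratory chain lies at -0.05 with almost all members between the dotted lines.

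Cholesterol synthesis and uptake was the list with the largest share of increases, 11 of 27 (40.7%), with 2 decreases and a median 0.90 above that of all genes. Summed over the list, the level was 4900 and 4910 TPM at 0 h and 8299 and 8399 TPM at 6 h. Stard4, which carries cholesterol between membranes, rose from 2235 and 2182 to 10776 and 10956 (2.30 ± 0.17, adjusted p = 3.84e-40), and Sc5d, a late enzyme of the pathway, from 2083 and 1956 to 7076 and 6771 (1.78 ± 0.16). Insig1, whose product retains the sterol sensor in the endoplasmic reticulum, rose from 2889 and 2822 to 8844 and 8331 (1.59 ± 0.12), and Idi1, an isomerase of the early pathway whose counts were not whole, from 5854 and 5538 to 24380 and 24016 (2.09 ± 0.28). At 2 h, 10 genes of the list were up-regulated. Mvk, which encodes mevalonate kinase, fell from 653.4 and 746.7 to 318.9 and 334.5 (-1.10 ± 0.19) and Nsdhl from 3428 and 3200 to 1653 and 1575 (-1.04 ± 0.12). At an adjusted p of at most 0.05, 5 members in all had a lower level and 18 a higher level, beside 3744 and 4089 of all 17277 genes. Mvk lost its call without 0 h replicate 2 (-0.998), after the GC correction (-0.96) and with the replicate block and GC correction (-0.96), and Nsdhl without 0 h replicate 1 (-0.98).

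Glucose transport and glycolysis genes moved both ways, with 5 increases and 7 decreases among 37. The neuronal glucose transporter gene Slc2a3 rose from 3292 and 3436 to 10255 and 10482 (1.62 ± 0.09, adjusted p = 3.5e-66) and was at the same level at 2 h (10042 and 10341), and Slc2a1, the transporter gene of glia and vessels, rose from 208.6 and 295.8 to 632.4 and 702.3 (1.40 ± 0.26). The arrestin-like genes Arrdc4 and Arrdc3, relatives of Txnip, fell from 2154 and 2200 to 704.1 and 749.7 (-1.58 ± 0.13) and from 4481 and 4440 to 1652 and 1651 (-1.43 ± 0.20), as Txnip did more strongly. Pdk3, a kinase that inhibits pyruvate dehydrogenase, rose from 375.5 and 376.7 to 1067 and 1068 (1.505 ± 0.14) and its relative Pdk2 fell from 473.1 and 585.7 to 207.6 and 194.7 (-1.40 ± 0.21). Ldha, lactate dehydrogenase, had overlapping values of 10855 and 14845 at 0 h and 14594 and 16340 at 6 h. The increases numbered 3 with library totals.

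Of 77 nuclear respiratory chain subunit genes, 1 rose and 1 fell, and their TPM summed to 26795 and 27428 at 0 h and 26316 and 26475 at 6 h. None of the 13 mitochondrially encoded protein genes was called in either direction by DESeq2, and none had an adjusted p of at most 0.05. Of 34 genes of the citric acid cycle and pyruvate entry, 1 rose and none fell. Of 77 mitochondrial ribosomal protein genes, 13 (16.9%, beside 10.2% of all genes) fell and none rose, and their sum was 4497 and 4813 TPM at 0 h and 3527 and 3564 TPM at 6 h. Mrpl10 fell from 935.6 and 861.3 to 245.0 and 246.3 (-1.87 ± 0.17) and Mrps16 from 374.6 and 408.7 to 117.7 and 115.1 (-1.75 ± 0.20), whereas Mrpl10 was at 727.0 and 862.2 at 2 h.

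Among the other metabolic lists, Acsl4, which activates arachidonic acid, rose from 2750 and 2529 to 10712 and 10331 (1.995 ± 0.26), and Cpt2, a carnitine acyltransferase of fatty acid oxidation, fell from 135.8 and 139.0 to 22.5 and 30.1 (-2.39 ± 0.36). These were the only calls among 35 genes of fatty acid metabolism. In the list of serine, one-carbon, amino acid and nucleotide synthesis, 4 of 37 rose and 5 fell. Mthfd2, a mitochondrial folate enzyme, rose from 449.2 and 428.9 to 1623 and 1628 (1.89 ± 0.13) and the arginine transporter gene Slc7a1 from 1995 and 2223 to 6003 and 5883 (1.495 ± 0.11), while the nucleotide synthesis genes Dhodh and Cad fell from 238.8 and 316.9 to 79.2 and 85.0 (-1.76 ± 0.28) and from 994.2 and 1178 to 444.1 and 461.4 (-1.26 ± 0.17). The decreases numbered 3 after a correction for GC content and the increases 2 with library totals.

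Matrix genes were up-regulated in 27 of 215 cases (12.6%) and down-regulated in 13 (6.0%), beside 9.1% and 10.2% of all genes, and the summed level was 3672 and 3735 TPM at 0 h and 3420 and 3492 TPM at 6 h. The decreases numbered 8 without 0 h replicate 2, and with library totals 18 genes rose and 21 fell, which turns the balance. Acan (chr7:79053483-79115099, mm10), the gene of aggrecan, a core proteoglycan of the nets around cortical interneurons, rose from 42.6 and 36.2 to 1501 and 1582 (5.29 ± 0.22, adjusted p = 4.33e-123), a 39.2-fold difference, and had only 77.9 and 61.0 counts at 2 h. Sdc1, a membrane proteoglycan gene, rose from 371.1 and 373.3 to 991.9 and 1019 (1.43 ± 0.14). None of the 36 proteoglycan, link protein and tenascin genes fell, but the list median was 0.14 below that of all genes and its sum was 1590 and 1616 TPM at 0 h and 1330 and 1381 TPM at 6 h. The list sum thus fell while Acan rose.

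Of 43 collagen genes, 7 rose (16.3%) and 1 fell (2.3%), beside 9.1% and 10.2% of all genes, at summed levels of only 66.4 to 83.7 TPM. Col10a1, known from growth plate cartilage and overlapping Nt5dc1 on the other strand, had 3.55 and 0 counts in the silenced cultures, 171.8 and 163.3 by 2 h and 423.7 and 387.2 by 6 h (7.87 ± 0.75). Col12a1 rose from 111.9 and 100.3 to 387.4 and 445.3 (1.97 ± 0.21), and Col4a2, a chain of basement membrane collagen, fell from 576.1 and 587.4 to 178.7 and 219.4 (-1.55 ± 0.20). The collagen increases numbered 4 without 0 h replicate 1 and with library totals. Among 47 laminins and matrix glycoproteins, Ccn1, a secreted protein that binds integrins, rose from 45.3 and 59.8 to 412.0 and 410.9 (2.97 ± 0.22) and its relative Ccn2 from 33.7 and 37.9 to 142.3 and 178.5 (2.16 ± 0.35), and Matn2 fell from 434.1 and 396.1 to 92.0 and 64.5 (-2.41 ± 0.23). That list had 5 increases and 3 decreases, and 3 increases without 6 h replicate 1.

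Integrins, the receptors of matrix proteins, were called in 8 of 25 cases, 4 in each direction. Itgav and Itgb8, whose products pair to activate TGF-beta, rose from 688.9 and 739.1 to 1499 and 1471 (1.06 ± 0.16) and from 1957 and 1846 to 5059 and 5243 (1.44 ± 0.28), and Itga3, a laminin receptor gene, fell from 449.2 and 466.0 to 86.7 and 72.1 (-2.53 ± 0.21). The decreases numbered 1 without 0 h replicate 2 and 2 without either 6 h replicate, and the increases 2 without 6 h replicate 1 and with library totals. Among 64 matrix proteases, inhibitors and crosslinkers, 8 rose and 5 fell, the increases numbering 4 with library totals. Plat, the gene of tissue plasminogen activator, rose from 1256 and 1154 to 2832 and 2791 (1.22 ± 0.11) and Adamts1 from 429.7 and 413.8 to 1037 and 1017 (1.28 ± 0.13). Of 24 ADAMTS genes tested, 4 rose (Adamts1, Adamts6, Adamts8 and Adamts9) and 3 fell. Adamts6 lost its call without 0 h replicate 1 (0.95), without either 6 h replicate (0.95 and 1.20), after the GC correction (0.89) and with library totals (0.83), and Adamts9 with library totals (0.86). Adamts8 rose from 137.6 and 152.5 to 433.4 and 438.8 (1.59 ± 0.20), while Adamts2 fell from 152.7 and 181.2 to 17.1 and 16.1 (-3.33 ± 0.41), Adamts18 from 379.9 and 305.1 to 38.5 and 64.5 (-2.73 ± 0.29) and Adamts17 from 669.3 and 557.9 to 117.7 and 140.9 (-2.25 ± 0.20). Mmp9, a protease that cuts perineuronal nets, was low in every library, with 21.3 and 14.3 counts at 0 h and 12.8 and 9.68 at 6 h.

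Chromatin genes had 28 increases (7.9%) and 42 decreases (11.8%) among 355 tested, beside 9.1% and 10.2% of all genes, and of the 42 decreases 32 were DNA repair genes. The shares that rose were 10.9% for histone acetylation, 12.9% for histone methylation, 6.9% for Polycomb and heterochromatin, 9.3% for remodellers, 18.2% (4 of 22) for DNA methylation and demethylation and 4.7% (2 of 43) for cohesin, condensin and architectural proteins, beside 9.1% of all genes. Of the DNA methylation genes 2 fell, and with library totals 1 rose and 3 fell, while by edgeR 3 rose and 4 fell; the decreases numbered 1 without 0 h replicate 2. The cohesin list had 1 increase without 6 h replicate 1. The 28 increases were 14 with library totals.

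Of 46 histone acetylation genes, 5 rose and 2 fell, 1 rising with library totals. Hdac9, a class IIa deacetylase that shuttles with neuronal activity, rose from 734.1 and 654.8 to 3837 and 4288 (2.55 ± 0.14, adjusted p = 1.74e-67) and was not higher at 2 h (616.1 and 533.5). Hdac4, of the same class, rose from 1079 and 1145 to 2394 and 2404 (1.11 ± 0.12), and Crebbp, the acetyltransferase that binds CREB, from 1529 and 1390 to 3623 and 3254 (1.24 ± 0.12). Sirt5, a mitochondrial deacylase gene, fell from 213.9 and 226.7 to 27.8 and 29.0 (-2.95 ± 0.30). Of 70 histone methylation genes 9 rose and 4 fell. The demethylase genes Kdm3a and Phf8 rose from 1372 and 1721 to 5203 and 5133 (1.74 ± 0.14) and from 861.1 and 900.0 to 2393 and 2351 (1.43 ± 0.12), and Dot1l, which methylates histone H3 in transcribed genes, from 755.4 and 755.1 to 1936 and 2160 (1.44 ± 0.13). The arginine methyltransferase genes Prmt3 and Prmt7 fell from 900.1 and 879.8 to 317.8 and 336.7 (-1.44 ± 0.14) and from 1383 and 1335 to 588.5 and 523.8 (-1.29 ± 0.14).

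Polycomb and heterochromatin genes had a median 0.49 above that of all genes, with 2 increases and 1 decrease among 29. Bcor and Rybp, parts of variant Polycomb complexes, rose from 955.2 and 1001 to 3171 and 2919 (1.64 ± 0.13) and from 2993 and 2857 to 7654 and 6964 (1.32 ± 0.18), while Ring1, a ubiquitin ligase of these complexes, fell from 128.7 and 147.5 to 35.3 and 42.0 (-1.84 ± 0.31). Among 54 remodellers, 5 rose and 2 fell. Baz1a, a subunit of ISWI complexes, rose from 99.4 and 117.1 to 982.3 and 843.2 (3.08 ± 0.22), Baz2b from 1134 and 1031 to 2920 and 2557 (1.34 ± 0.14), and Chd2, with counts that were not whole, from 2208 and 2309 to 8078 and 7434 (1.78 ± 0.10). Smarca2, an ATPase of the BAF complex, fell from 11793 and 11120 to 4493 and 4198 (-1.40 ± 0.10), and Bcl7a, of the same complex, from 3451 and 3500 to 1564 and 1589 (-1.14 ± 0.11). The 5 increases were 3 after a correction for GC content and with library totals. Tet3, which oxidizes methylated cytosine, rose from 3127 and 3085 to 7393 and 7162 (1.23 ± 0.09), and was 0.98 on the log2 scale with library totals.

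DNA repair was the list with the largest share of decreases, 32 of 94 (34%), with 1 increase and a median 0.75 below that of all genes. At 2 h 13 of its genes were already down-regulated. Rad50 (chr11:53649519-53707319, mm10), a subunit of the complex that holds broken DNA ends, fell from 487.4 and 504.8 to 95.2 and 90.4 (-2.42 ± 0.20, adjusted p = 6.26e-31), Parp2, which senses strand breaks, from 438.5 and 494.7 to 113.4 and 73.1 (-2.32 ± 0.25), and Mlh3, a mismatch repair gene, from 944.5 and 962.4 to 178.7 and 205.4 (-2.31 ± 0.21). Genes of other repair pathways fell as well: Ogg1, a glycosylase of base excision, by 1.68 on the log2 scale, Xrcc4, of end joining, by 1.39, Rad51d, of homologous recombination, by 2.02 and Fance, of the Fanconi anaemia pathway, by 2.12. The summed level moved less, from 1591 and 1644 TPM to 1461 and 1463 TPM, and the most abundant member, Ddb1, was not called (-0.04 ± 0.10). The decreases numbered 25 to 31 when any single library was left out, and the single increase was in Xrcc2, from 158.9 and 143.3 to 332.8 and 294.7 (1.05 ± 0.22), which lost its call without 0 h replicate 2 (0.98) and without 6 h replicate 1 (0.96).

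Of 610 RNA processing genes tested, 39 were up-regulated (6.4%) and 45 down-regulated (7.4%), beside 9.1% and 10.2% of all genes, and their median was 0.17 above that of all genes. With library totals the counts were 18 and 69. Of 61 SR and hnRNP protein genes 6 rose (9.8%, close to the 9.1% of all genes) and 1 fell (1.6%), and 1 rose with library totals. Srsf6 rose from 2708 and 2789 to 6820 and 6352 (1.26 ± 0.13), Srsf11 from 2114 and 1944 to 4804 and 4755 (1.24 ± 0.14), and Rbm10, an inhibitor of splice site choice, fell from 1158 and 1313 to 512.5 and 513.0 (-1.27 ± 0.16). Of 73 core spliceosome genes 5 rose (6.8%) and 4 fell (5.5%), both below the shares of all genes, with Dhx15, the helicase that disassembles the spliceosome, at 3819 and 3600 counts at 0 h and 9352 and 8791 at 6 h (1.29 ± 0.12), and Lsm5 at 284.1 and 271.4 and at 108.1 and 104.3 (-1.39 ± 0.21).

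Neuronal RNA-binding proteins had 6 increases (11.5%, near the 9.1% of all genes) and 1 decrease (1.9%, beside 10.2%) among 52. Mbnl2, a regulator of developmental splicing, rose from 655.1 and 582.3 to 2617 and 2353 (2.01 ± 0.28), Srrm4, which drives inclusion of neuronal microexons, from 1829 and 1798 to 5105 and 5093 (1.49 ± 0.10, adjusted p = 4.75e-51), and Msi2 from 1791 and 1894 to 4479 and 4616 (1.304 ± 0.22). Srrm4 was not higher at 2 h, with 1732 and 1686 counts. Rbfox1, a neuronal splicing factor, had 2503 and 2269 counts at 0 h and 1681 and 1784 at 6 h (-0.46 ± 0.17, adjusted p = 0.0184), under the 2-fold limit.

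Of 23 cleavage and polyadenylation genes, 4 rose and 2 fell, with 2 rising without 0 h replicate 2 or after a GC correction and none with library totals. Pabpn1, which binds poly(A) tails in the nucleus, rose from 1063 and 1010 to 2466 and 2421 (1.24 ± 0.11), and Cpsf3, the endonuclease that cuts the transcript, fell from 1350 and 1275 to 466.5 and 441.0 (-1.53 ± 0.14). Among 66 genes of mRNA decay and small RNAs, Ago2 and Ago4, both Argonautes, moved in opposite directions, from 5165 and 4761 to 10253 and 10703 (1.08 ± 0.11) and from 690.6 and 614.3 to 208.7 and 268.9 (-1.45 ± 0.23). That list had 5 calls each way, with 3 increases without 0 h replicate 2 or without 6 h replicate 1.

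Of 89 RNA modification genes, 18 (20.2%, beside 10.2% of all genes) fell and 7 (7.9%) rose, the latter 4 without 6 h replicate 2 or by edgeR. Dus4l, a dihydrouridine synthase gene, fell from 139.4 and 152.5 to 18.2 and 9.68 (-3.39 ± 0.45), Adat1, a transfer RNA deaminase gene, from 221.0 and 204.8 to 44.9 and 40.9 (-2.31 ± 0.34), and Nsun3, a cytosine methyltransferase gene of mitochondrial transfer RNA, from 350.6 and 297.5 to 73.8 and 59.2 (-2.29 ± 0.31). Rbm15, an adapter of the m6A writer, rose from 182.0 and 182.9 to 771.5 and 678.7 (1.99 ± 0.18). Among 87 genes of translation initiation and tRNA charging, taken as 1 list, 12 fell (13.8%, near the share of all genes) and 2 rose (2.3%). Those that fell included Pars2, Rars2, Vars2, Sars2, Ears2, Tars2, Wars2 and Cars2, all synthetases of the mitochondrion, the cytosolic Dars and Lars, and Eif2b3. The mitochondrial and cytosolic synthetases tested were not counted apart, so no share is given for either kind. Sars2 lost its call without 0 h replicate 1, without 0 h replicate 2 or without 6 h replicate 1 (-1.39, -1.40 and -1.16), Wars2 without 0 h replicate 1 (-0.99) and Cars2 without 0 h replicate 2 (-0.99), after the GC correction and with the replicate block and GC correction (both -0.95). Pars2 fell from 246.8 and 253.7 to 34.2 and 45.2 (-2.66 ± 0.31). The cytosolic synthetases did not move as one: Eprs rose from 6447 and 6472 to 16946 and 16649 (1.38 ± 0.09) and Iars from 2843 and 2794 to 8103 and 7745 (1.49 ± 0.10), while Lars fell from 3048 and 3153 to 1180 and 1179 (-1.39 ± 0.11).

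Of 80 ribosome biogenesis genes 4 rose and none fell, with Nop53 at 421.7 and 470.2 counts at 0 h and 1316 and 1457 at 6 h (1.64 ± 0.20). Of 80 cytosolic ribosomal protein genes none rose and 2 fell, Rps27 and Rps29, while 21 were higher and 5 lower when only the adjusted p was required to pass. Of all 17277 genes tested, 4089 were higher and 3744 lower by that rule. The list median was 0.19 above that of all genes. Rps29 had 377.3 and 402.0 counts at 0 h and 143.4 and 172.1 at 6 h (-1.305 ± 0.21), and Rps27, at 32.3 to 136.7 counts, lost its call without 0 h replicate 1 and without either 6 h replicate, with log2 fold changes of -0.63, -1.61 and -1.10. Both genes have expected counts that are not whole. The list summed to 77811 and 77606 TPM at 0 h and 76476 and 77447 TPM at 6 h, means that differ by less than the 2 libraries at 6 h do.

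**Figure D4:**
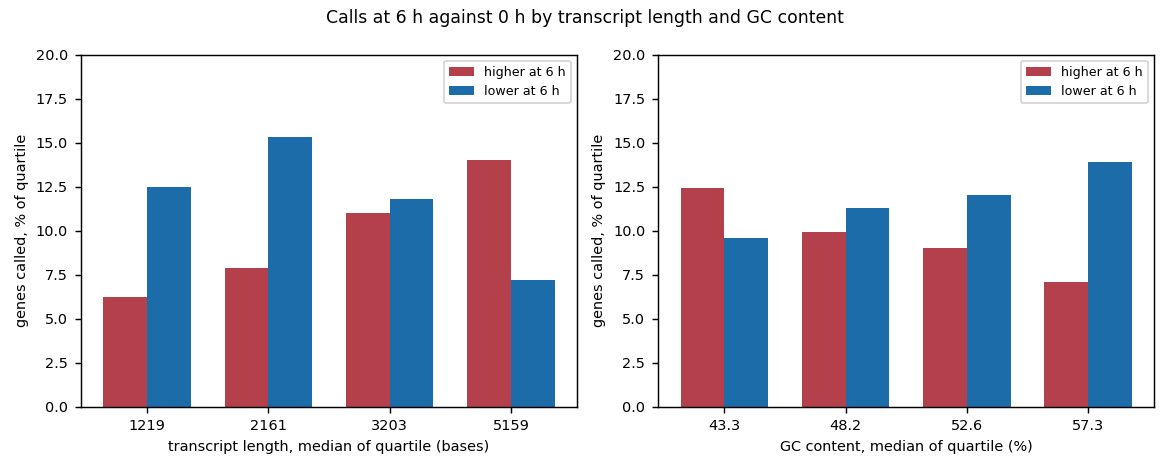
Share of genes up-regulated (red) and down-regulated (blue) at 6 h, in percent of each quartile of transcript length (left, bases) and of GC content (right, percent), for genes whose normalized counts averaged 10 or more. The share of up-regulated genes rises from 6.2% to 14% with length and falls from 12.4% to 7.1% with GC content.

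The direction of change moved with transcript length and base composition. In the quartile of shortest transcripts (median 1219 bases) 6.2% of genes were up-regulated, 12.5% down-regulated and the median log2 fold change was -0.16, and in the quartile of longest (median 5159 bases) the values were 14%, 7.2% and 0.23. From the quartile with the lowest to that with the highest GC content the median log2 fold change went from 0.20 to -0.17. The TPM-weighted mean transcript length was 2044 and 2023 bases at 0 h and 2111 and 2125 bases at 6 h. After a GC trend was taken out of each library, the median of the chromatin genes relative to all genes was 0.04 in place of 0.11 and that of the channel genes -0.01 in place of -0.04, and 1513 genes were up-regulated and 1748 down-regulated. The part of length in the changes of single lists was not tested.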

How the data were processed

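RNA-seq libraries were made from poly(A) RNA in biological duplicates. Per the labels, the authors aligned reads to mm10 with Bowtie2 2.2.9 and estimated expected counts and TPM per gene with RSEM 1.3.0, and these deposited values were used as given. The annotation release and strand setting are not given in the sources used here. Expected counts were rounded to whole numbers. All 6 libraries were fitted in DESeq2 1.42.0 (R 4.3.3) with median-of-ratios size factors, unshrunken fold changes and Benjamini-Hochberg adjustment, and edgeR 4.0.16 was an alternative. Both were tested on simulated data. Positions and GC content came from GENCODE, and a level of 0 was set to a floor of 3 counts per library for folds. The 4 libraries held 26787482 to 28573067 counts, and levels of low genes carry counting error. CRE and AP-1 letters were searched in RefSeq promoter windows. With 2 libraries per group, p-values set the difference between groups against a spread that DESeq2 estimated from all 6 libraries. That estimate also draws on other genes, so it is not the spread of the 4 libraries alone.

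The members and lists were chosen with earlier results of these data known. Genes were named by rule: the 5 with the largest change each way (mean of at least 100), and in each list up to 3 each way (mean of at least 50), with textbook members given regardless. Genes outside the rule were chosen after their values were seen. The alternatives were other size factors, a count filter, 4 libraries, the replicate number as a block, a GC correction, a test against the 2-fold limit and leaving out each library. Some genes are not reported here.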

Additional observations from a re-analysis of the deposited data

How the results depend on the processing

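Library totals as size factors moved the most counts: 1032 genes were higher in all, 32 synapse genes were higher and 40 lower, 18 matrix genes were higher and 21 lower, 14 chromatin genes were higher, and 18 RNA processing genes were higher and 69 lower, while the median of all genes was -0.247. A test against an absolute log2 fold change of 1 left 446 genes higher and 414 lower. Leaving out each library in turn gave 8 to 12 lower matrix genes, and medians of 0.024 to 0.083 for matrix, -0.086 to -0.047 for channels, -0.050 to 0.008 for metabolism and 0.072 to 0.126 for chromatin. The matrix median was 0.079 with edgeR and 0.076 with a mean count of at least 10. After the GC correction the medians of channels and chromatin were -0.007 and 0.044, and with the replicate block and GC correction those of channels, matrix and chromatin were -0.007, 0.088 and 0.045. The ratio of summed TPM for metabolism was 1.047 without mitochondrially encoded genes against 1.013. The cause of these shifts was not tested. Under the replicate block 1508 genes were higher and 1661 lower, of which 1481 and 1651 were called without it; same-numbered 0 h and 6 h libraries did not deviate together (correlation -0.014 across 12290 genes), so the numbers were not taken as pairs. Of 45 lists, 35 kept the sign of their median in every setting and 10 did not, and after the GC correction only 14 medians moved by less than the replicate spread. Of 254 named genes called, 58 lost their call in some setting, 37 of them on leaving out 1 library, and 0 reversed. Low counts limit 825 of the 3333 calls, whose mean was under 50.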
